A study of Mus musculus with 4 samples.

Results

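The genes described here were 10 genes of osteoclasts and of lysosomal protein breakdown, taken by their symbols from the 4 single-cell matrices, which together listed 21739 symbols. They were the osteoclast genes Ctsk, Acp5, Atp6v0d2, Ocstamp and Dcstamp, the lysosomal proteases Ctsb, Ctsl and Ctsd, the endolysosomal glycoprotein gene Gpnmb and the metalloproteinase gene Mmp19. All 10 were listed in every library and were followed in cells gated as macrophages, monocytes, dendritic cells and neutrophils. The cells came from the skin around full-thickness wounds of 8 mm on day 7, from C57/BL6j mice 6 weeks old, with 1 mouse per library. Control mice (2 libraries) received PBS and hucMSC-Exo mice (2 libraries) received 100 µg of exosomes from human umbilical cord mesenchymal stem cells, injected at 4 sites around the wound every 48 h. Animals of both groups were wild type and wounded, and there was no unwounded group. The labels gave no sign of pooling.

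The labels disagreed in places. The titles gave the groups used here, whereas a letter code carried by each deposited matrix put the libraries into other pairs, so every direction between hucMSC-Exo and Control below rests on the titles. The tissue labels named segments of the gut, although the cell type label named skin. Over all kept cells, skin markers summed to 830 to 1139 CPM (UMIs of a gene relative to all UMIs of the cells summed, scaled to the same total in each sum) and gut markers to 5.16 to 8.997 CPM, and the gut genes Fabp1 and Cdx2 were in no library. A UMI is a tag that counts 1 captured RNA molecule.

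The libraries held 1098 and 2422 cells (Control 1 and 2) and 1539 and 2119 cells (hucMSC-Exo 1 and 2), 7178 in all, with 6657095 to 16950639 UMIs each. Only 6 barcodes occurred in more than 1 library. Of the deposited cells, 81.5% to 87.7% per library held a UMI of Ptprc, the pan-leukocyte gene. The paper counts more cells per library and describes separating Ptprc-positive cells by computation. Shares of deposited cells are therefore not read as shares of all skin cells. A cell was kept if it had 200 to 3000 detected genes and a mitochondrial share of UMIs up to 10%, which left 6443. A kept cell entered a gate when at least 3 of the gate's 10 marker genes were found in it and more than of any other gate, and none of the 10 genes was a marker. This gave 1114 macrophage-gated, 467 monocyte-gated, 132 dendritic-gated and 1025 neutrophil-gated cells. The macrophage markers summed to 9082 to 14076 CPM in the macrophage gate and to at most 1417 CPM in the others, and the neutrophil markers summed to 132 to 446 CPM in the macrophage gate and to at least 56703 CPM in the neutrophil gate. Median depth was 7117 UMIs per cell in the macrophage gate, 6781 in the monocyte gate, 10340.5 in the dendritic gate and 2100 in the neutrophil gate.

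Osteoclasts are multinucleated cells that form by fusion of monocyte-lineage precursors under the cytokines CSF1 and RANKL and the transcription factor NFATc1. They seal off a patch of bone, acidify it with a vacuolar proton pump, and digest its collagen with secreted cathepsin K. They also secrete tartrate-resistant acid phosphatase. Macrophages use related machinery inside the cell: the pump acidifies lysosomes, where cathepsins B, L and D break down engulfed protein, which in a wound includes dead neutrophils and matrix. The transcription factors of the MiT/TFE family (Mitf, Tfeb, Tfe3 and Tfec) switch on genes of both programs through short DNA elements with the core CACGTG or TCATGTG.

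RefSeq promoter windows (GRCm38.p6) were at hand for Ctsk, Acp5, Gpnmb, Ctsl and Ctsd, 7 windows in all. The 250 bases before each start site were searched on both strands for CACGTG, for TCATGTG and for the AP-1 element TGANTCA, motifs that do not overlap in their letters. CACGTG was found in 2 of the 7 windows and in 6.02% of 32851 windows of the genome, TCATGTG in 1 of the 7 and in 3.25%, and TGANTCA in 0 of the 7 and in 6.75%. The 4 matches are shown because they are the sites of these genes at which a MiT/TFE element could be read, with the motif in capitals, on the strand of the gene (minus for all 4).
Ctsd, chr7:142388050-142388077, 245 bases before the start: tccccCACGTGacctgtatccagtcatt
Ctsd, chr7:142387903-142387942, 98 bases before the start: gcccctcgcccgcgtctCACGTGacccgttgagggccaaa
Ctsl, chr13:64370734-64370770, 236 bases before the start: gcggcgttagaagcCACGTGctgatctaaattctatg
Acp5, chr9:22130665-22130705, 90 bases before 1 of its 3 starts: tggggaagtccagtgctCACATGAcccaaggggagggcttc
The capitals of the Acp5 line read TCATGTG on the opposite strand. A match describes the letters of the window and not binding of a factor.

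Summed over libraries, the 5 osteoclast genes lay mostly in cells that the limit of 3000 detected genes left out, and the other 5 genes did not. The 531 cells over that limit held 24.1% of all UMIs. They held 94.6% of the UMIs of Ctsk (cathepsin K, chr3:95499256-95509362 in GRCm38), 91.4% of those of Atp6v0d2 (a subunit of the proton pump, chr4:19876841-19922605) and 90.7% of those of Acp5 (tartrate-resistant acid phosphatase, chr9:22126727-22135711). The shares were 73.8% for Dcstamp and 72.1% for Ocstamp, which encode membrane proteins required for osteoclast fusion (chr15:39745930-39760938 and chr2:165393760-165400405). In contrast, the shares were 31.5% for Gpnmb, 28.3% for Ctsd, 25.8% for Ctsl, 25.5% for Ctsb and 18.7% for Mmp19, close to the 24.1% of all RNA. For Ctsk the share was 98.0% in Control 1, 97.0% in Control 2, 89.9% in hucMSC-Exo 1 and 84.7% in hucMSC-Exo 2. All 4 libraries thus held most of their Ctsk outside the kept cells, in both groups. For Ocstamp the shares were 85.6%, 76.8%, 69.1% and 20.9% in the same order, and for Dcstamp 88.2%, 77.7%, 69.9% and 37.5%. In hucMSC-Exo 2 most UMIs of the 2 fusion genes therefore lay in other cells, though its cells over the limit held 10.8% of all its UMIs.

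**Figure D1:**
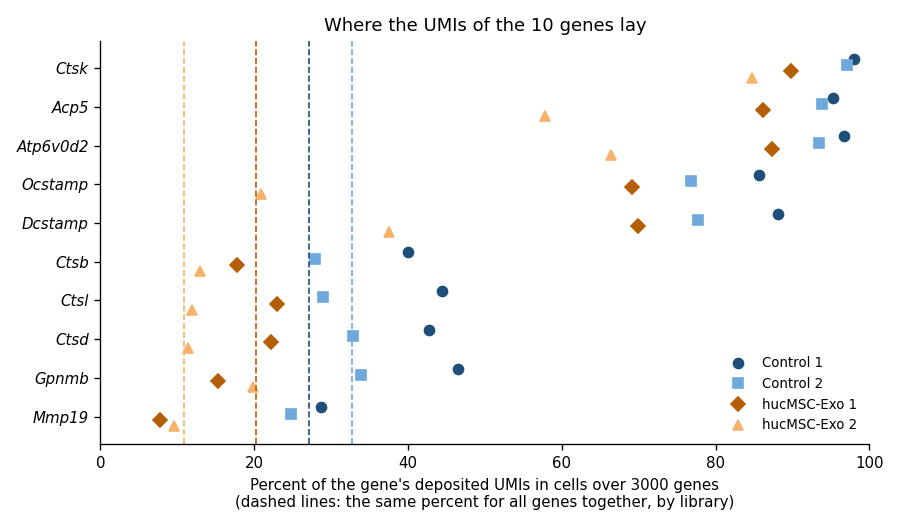
The share of each gene's deposited UMIs that lay in cells over 3000 detected genes (x axis, percent), with 1 point per library, and a dashed line per library at the share of all UMIs in those cells. The 5 osteoclast genes lay to the right of the line of their library in all 4 libraries, while Ctsb, Ctsl, Ctsd, Gpnmb and Mmp19 lay closer to it, on either side.

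Within those cells Ctsk was concentrated further. A threshold of 10 Ctsk UMIs, chosen after the values were seen, picked 155 cells, called Ctsk-high below, that held 97.3% of the 26424 Ctsk UMIs. They numbered 11 in Control 1, 87 in Control 2, 47 in hucMSC-Exo 1 and 10 in hucMSC-Exo 2, or 1.00%, 3.59%, 3.05% and 0.472% of the deposited cells. The 2 groups overlapped in this share. The number moved with the threshold: 175 cells had at least 5 Ctsk UMIs, 135 at least 20, 116 at least 50 and 87 at least 100, and 662 had at least 1. Of the 155 cells, 139 were over 3000 genes and 14 were kept. Their median was 25492 UMIs (range 1265 to 56220) and 4410 genes per cell, and their median Ctsk count was 123, with 740 in the highest cell.

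**Figure D2:**
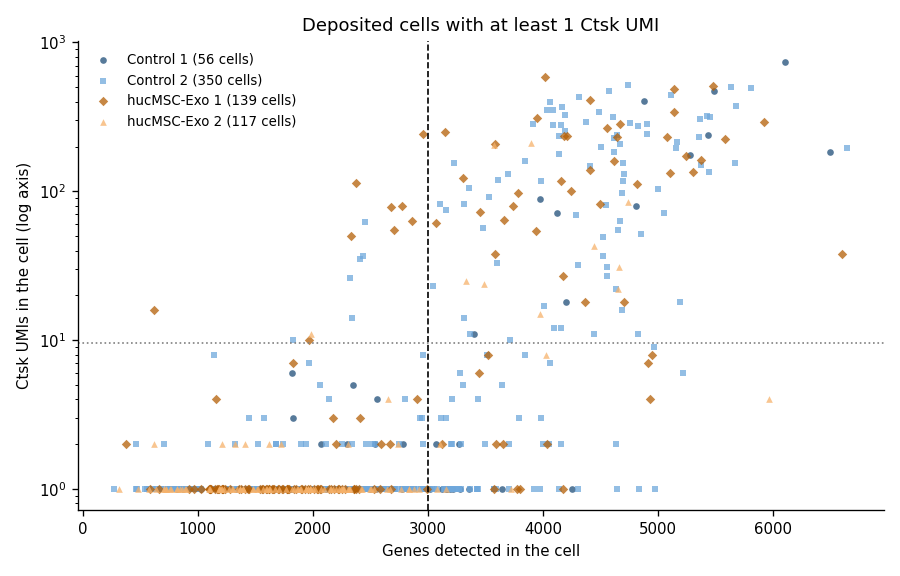
Ctsk UMIs (y axis, log scale) against detected genes (x axis) for each deposited cell with a Ctsk UMI, with a symbol per library, a dashed line at 3000 genes and a dotted line under 10 UMIs. The cells with at least 10 Ctsk UMIs lay mostly to the right of 3000 detected genes, and only 14 of 155 were kept cells.

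The Ctsk-high cells carried most of the osteoclast genes together. Acp5 was found in 149 of the 155 cells, Atp6v0d2 in 145, Ocstamp in 126 and Dcstamp in 95. With Ctsk counted, at least 4 of the 5 genes were found in 131 of the 155 cells, against 6 of the 1106 other kept macrophage-gated cells. Ctsk was in all 155 and under 10 UMIs in the other cells by choice, so part of this contrast was set by the choice. The cells were chosen by Ctsk and are far deeper than kept cells, so these values are a description without a test. With no upper limit on genes, 105 of the 155 passed the macrophage gate, 5 the neutrophil gate and 1 the gate of structural cells, and 44 passed none. Ptprc, the pan-leukocyte gene, was found in 90.3% of them. No UMI of C1qa, C1qb or C1qc, defining complement genes of tissue macrophages, was found in 122 of them and no UMI of Adgre1 (F4/80) in 145. No UMI of the fibroblast genes Lum and Dcn was found in 100, while 12 cells held at least 3 structural markers and 5 at least 3 lymphoid markers.

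Levels were compared with those of the other kept macrophage-gated cells of the same library. Values are in the order of the libraries above (Control, then hucMSC-Exo). Ctsk stood at 6784, 6532, 6858 and 3575 CPM in the Ctsk-high cells, by choice of the cells, and at 16.5, 34.1, 24.9 and 27.5 CPM in the others. Acp5 stood at 6972, 4889, 5044 and 1968 CPM in the same order, against 67.7, 154.6, 174.0 and 114.8 CPM. Atp6v0d2 stood at 1050, 733, 653 and 355 CPM against 3.15, 32.0, 17.2 and 25.4 CPM. For each of these genes the lowest library of the Ctsk-high cells was above the highest library of the others. Ocstamp stood at 319.8, 360.7, 247.9 and 90.2 CPM against 2.36, 57.6, 37.0 and 21.3 CPM, and Dcstamp at 117.5, 138.2, 85.3 and 47.7 CPM against 0.787, 16.8, 8.29 and 4.13 CPM. The 2 fusion genes were thus also higher in the Ctsk-high cells of all 4 libraries, with hucMSC-Exo 2 lowest.

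The lysosomal proteases went the other way. Ctsb stood at 675, 829, 714 and 2360 CPM in the Ctsk-high cells and at 3710, 4600, 2592 and 4878 CPM in the other macrophage-gated cells. Ctsl stood at 120.3, 547, 711 and 1846 CPM against 724, 2223, 1885 and 1882 CPM, and Ctsd at 525, 529, 515 and 869.8 CPM against 974, 1292, 865 and 1139.5 CPM. Each of these 3 genes was lower in the Ctsk-high cells of every library, though Ctsl in hucMSC-Exo 2 by little. Gpnmb was lower in 3 libraries (38.3, 64.2 and 34.3 CPM against 216.5, 343.7 and 191.2 CPM) and higher in hucMSC-Exo 2 (265.2 against 216.6 CPM). Mmp19, which encodes a secreted metalloproteinase, was lower in all 4 (16.4, 72.2, 62.4 and 308.0 CPM against 77.9, 1230, 978 and 714 CPM).

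A further 161 macrophage-gated cells were also over 3000 genes and held fewer than 10 Ctsk UMIs, so their Ctsk was low by choice. Summed over libraries, Ctsb stood at 3578 CPM in these cells, 854 CPM in the Ctsk-high cells and 4096 CPM in the other kept ones. Acp5 stood at 411.7, 4987 and 136.7 CPM and Atp6v0d2 at 113.3, 721 and 23.0 CPM in the same order. Ocstamp stood at 71.4, 311.5 and 37.4 CPM and Dcstamp at 24.96, 116.7 and 10.0 CPM. The 4 osteoclast genes other than Ctsk thus lay between the other 2 sets in these deep cells, above the kept cells. Ctsl stood at 1435, 617 and 1842 CPM, Ctsd at 1319, 541 and 1124 CPM, Gpnmb at 346.8, 62.8 and 267.6 CPM and Mmp19 at 513, 75.5 and 891 CPM. The part of depth in the differences was not tested.

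**Figure D3:**
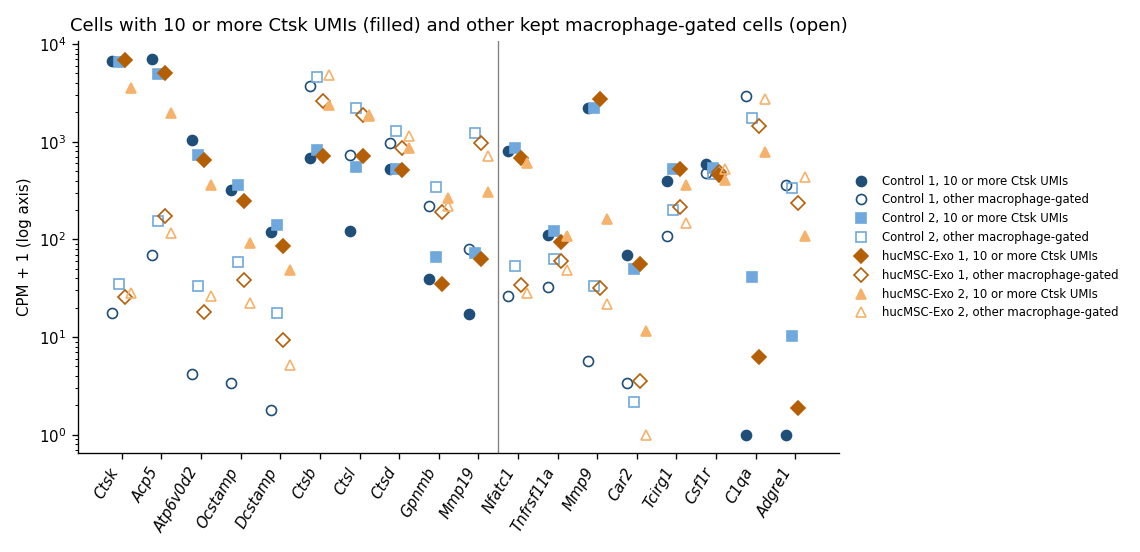
Level (y axis, CPM + 1, log scale) of the 10 genes and, right of the grey line, of 8 other genes, in the Ctsk-high cells (filled) and in the other kept macrophage-gated cells (open), 1 symbol per library. The osteoclast genes were higher in the Ctsk-high cells of all 4 libraries, and Ctsb, Ctsl, Ctsd and Mmp19 were lower in all 4.

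Several other genes of the osteoclast program were higher in these cells. Over all 7751 genes at or above 10 CPM in either set, 20.8% were over 2-fold higher in the Ctsk-high cells and 16% over 2-fold lower, with a median ratio of 1.17, from sums over libraries. Of 16 genes of that list at or above 10 CPM in either set, 9 were over 2-fold higher in the Ctsk-high cells and 2 over 2-fold lower (Fcer1g and Sirpa), with a median ratio of 2.45. Mmp9, a gelatinase secreted by osteoclasts and neutrophils and here a marker of the neutrophil gate, stood at 2265 against 25.3 CPM, and Nfatc1 at 789 against 39.1 CPM. Tcirg1, the osteoclast form of the pump's a subunit, stood at 501 against 178.0 CPM, and Tnfrsf11a, the receptor of RANKL, at 111.4 against 53.7 CPM. Car2, the carbonic anhydrase that supplies protons, stood at 50.6 against 1.43 CPM, and Itgb3, the integrin chain of the sealing zone, at 67.6 against 7.15 CPM. Oscar, an osteoclast immune receptor, had 60 UMIs in the Ctsk-high cells and 0 in the others. Csf1r, the receptor of CSF1, was similar, at 514 against 481 CPM.

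Against the same shares of all genes (20.8% and 16%), of 16 subunits or partners of the proton pump 8 were over 2-fold higher in the Ctsk-high cells (Atp6v1b2 stood at 808 against 205.5 CPM) and 1 was over 2-fold lower (Atp6v0a1, at 5.82 against 34.7 CPM). Of 7 genes of other cathepsins and legumain at that level, none was over 2-fold higher and 5 were lower. Examples were Ctss (cathepsin S, 331 against 2640 CPM) and Lgmn (legumain, 248 against 2259 CPM). Of 25 genes of lysosomal membrane proteins and hydrolases, 1 was higher (Glb1) and 8 were lower, among them Lamp1 (185.1 against 1032 CPM) and Grn (358 against 1068 CPM). Of 11 other metalloproteinases 1 was higher (Mmp9) and 6 were lower. Of 9 protease inhibitors 2 were higher (Cst6 and Cst7) and 3 were lower, of 9 fusion genes 0 and 4, and of the 4 MiT/TFE factors 1 (Mitf, 139.3 against 37.4 CPM) and 0. The macrophage-gate markers Cd68 and Trem2 and the neutrophil-gate marker Mmp9 were left in these lists, although the comparison cells were gated on such markers. The lists were chosen with earlier results of these data known and carry no test.

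The 10 Ctsk-high cells of hucMSC-Exo 2 stood apart from those of the other libraries. Dcn stood at 1554 CPM in them against 18.2 to 98.4 CPM in the others, C1qa at 790.3 CPM against 0 to 39.9 CPM, and Mmp9 at 159.1 CPM against 2215 to 2723 CPM. Their median Ctsk count was 28, against 175, 134 and 123 in the other libraries. Only 2 cells of that library had at least 100 Ctsk UMIs, against 6, 51 and 28. Fibroblasts can express Ctsk, and whether other cells took part in the Ctsk of hucMSC-Exo 2 was not tested.

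In kept cells, where the gates can be compared, the macrophage gate was the highest of the 4 gates for most of the 10 genes. Sums of UMIs per gate and library were tested with edgeR's quasi-likelihood test with library as a block, and p-values were adjusted over all genes by the Benjamini-Hochberg method. Against monocytes, 8 of the 10 genes were measured well enough to be tested and 7 were higher in macrophages, where 14.3% of 7035 genes were higher and 13.6% lower. Against dendritic cells, 7 of 9 tested were higher and 1 was lower (background 20% and 16% of 6385 genes). Against neutrophils, 6 of 8 tested were higher (background 30% higher and 26.4% lower of 7165 genes). Dcstamp and Atp6v0d2 were too low to be tested against monocytes, Atp6v0d2 against dendritic cells, and Ocstamp and Dcstamp against neutrophils. A gene that was high in macrophages alone could pass the count filter through them, so these counts describe the genes tested and not all 10.

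**Figure D4:**
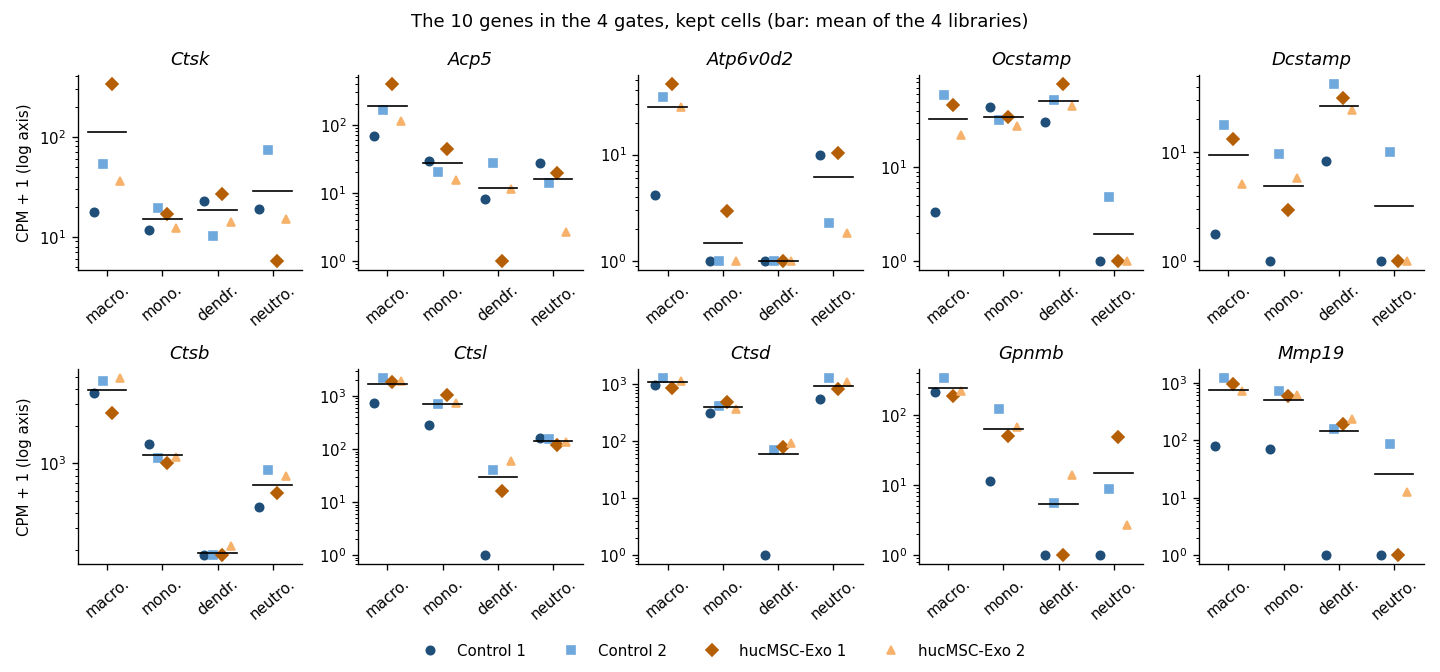
Level (y axis, CPM + 1, log scale, separate in each panel) of the 10 genes in the macrophage, monocyte, dendritic and neutrophil gates of kept cells, with 1 point per library and a bar at the mean of the 4 libraries. Ctsb and Gpnmb were highest in the macrophage gate of every library, Ocstamp and Dcstamp had their highest means in the dendritic gate, and the Ctsd ranges of macrophages and neutrophils overlapped.

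Ctsk in kept macrophage-gated cells depended on few cells. It stood at 16.5 and 52.3 CPM in Control 1 and 2 and at 337.6 and 34.9 CPM in hucMSC-Exo 1 and 2, with hucMSC-Exo 1 apart from the rest. A Ctsk UMI was found in 6.18%, 16.8%, 12.3% and 14.0% of these cells in the same order, against 1.96%, 6.54%, 4.03% and 3.07% of lymphoid-gated cells, taken as the background, at median depths of 7117 and 3990 UMIs. The mean share over libraries was 12.3% in the macrophage gate, 8.89% in the monocyte gate, 16.5% in the dendritic gate and 3.62% in the neutrophil gate. Dendritic-gated cells were the deepest of these, so the shares before thinning are not ranked. After thinning every cell to 1000 UMIs the means were 3.34% of macrophage-gated, 1.56% of monocyte-gated, 1.60% of dendritic-gated, 1.72% of neutrophil-gated and 1.02% of lymphoid-gated cells. Only 8 of the 1114 macrophage-gated cells had 10 or more Ctsk UMIs, yet the highest alone had 242 of the 803 UMIs of the gate.

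Ctsk was higher in macrophages than in monocytes (log2 fold change 2.31 ± 0.35 SE, adjusted p = 4.37e-05 by edgeR) and dendritic cells (2.26 ± 0.41, adjusted p = 0.000147). Dendritic-gated cells held 19 Ctsk UMIs in all. Ctsk passed the count filter of that comparison through the macrophage gate, so its call against dendritic cells is not read as support. In monocytes Ctsk stood at 10.6 to 18.4 CPM and in dendritic cells at 9.24 to 25.6 CPM over the 4 libraries. In Control 1 the macrophage level (16.5 CPM) was below the dendritic level (21.8 CPM) and the neutrophil level (17.8 CPM). Without the cells of 10 or more Ctsk UMIs the differences were 0.83 (adjusted p = 0.0236, background 14.2%) and 0.73 (adjusted p = 0.167, background 20.1%), and without hucMSC-Exo 1 they were 1.36 (adjusted p = 0.00249) and 1.47 (adjusted p = 0.0174). Against neutrophils Ctsk did not pass the test (0.68 ± 0.57, adjusted p = 0.318). Neutrophil-gated cells of Control 2 stood at 73.2 CPM, above the 4.70 to 17.8 CPM of the other 3 libraries, and 1 cell held 35 of their 57 UMIs. Without Control 2 the difference was 2.04 (adjusted p = 0.00597), and without hucMSC-Exo 1 it was -0.37.

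Acp5 was the osteoclast gene most clearly macrophage-rich among kept cells. It stood at 67.7, 162.0, 398.8 and 114.4 CPM in macrophages, at 14.4 to 43.5 CPM in monocytes, at 0 to 26.2 CPM in dendritic cells and at 1.66 to 26.7 CPM in neutrophils. The macrophage value was the highest of the 4 gates in every library. The log2 fold change was 2.77 ± 0.21 against monocytes (adjusted p = 7.18e-09), 3.29 ± 0.39 against dendritic cells (adjusted p = 8.34e-07) and 3.64 ± 0.39 against neutrophils (adjusted p = 6.85e-07). It was still 2.39 against monocytes without the cells of 10 or more Ctsk UMIs (adjusted p = 1.06e-07). Dendritic-gated cells held 22 Acp5 UMIs in all and neutrophil-gated cells 19. Acp5 passed the count filter of both comparisons through the macrophage gate, so only its call against monocytes is read as support.

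Atp6v0d2 stood at 3.15, 33.6, 45.3 and 26.7 CPM in macrophages. Monocyte-gated cells held 1 UMI and dendritic-gated cells 0 UMIs, which against a floor of 3 counts over the whole gate puts the summed macrophages at least 13.6-fold above the summed dendritic cells, and the lower 95% counting limit of that ratio was 10.9. In Control 1 alone the floor of the dendritic gate was 21.8 CPM, above the macrophage level, so no fold is given for that library. Neutrophils held 5 UMIs in all and stood at 8.91, 1.28, 9.41 and 0.832 CPM, above the macrophages in Control 1, on 1 neutrophil UMI, and below them in the other 3 libraries. Atp6v0d2 passed the count filter of the neutrophil comparison through the macrophage gate, so its call there is not read as support.

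By the mean of the 4 libraries, Ocstamp and Dcstamp did not have their highest levels in macrophages among kept cells. In Control 2, however, Ocstamp was highest in macrophages. Ocstamp stood at 2.36, 57.6, 45.3 and 21.2 CPM in macrophages, at 26.5 to 42.4 CPM in monocytes, at 29.1, 50.8, 76.7 and 44.5 CPM in dendritic cells and at 0 to 3.85 CPM in neutrophils. It did not pass the test against monocytes (log2 fold change -0.064 ± 0.36, adjusted p = 0.919) or dendritic cells (-0.79 ± 0.33, adjusted p = 0.0659), though it passed against dendritic cells without Control 2 (-1.35, adjusted p = 0.0240). Dcstamp stood at 0.787, 16.7, 12.2 and 4.11 CPM in macrophages and at 7.27, 41.6, 30.7 and 23.5 CPM in dendritic cells, and was lower in macrophages in all 4 libraries. That difference passed the test (-1.83 ± 0.40, adjusted p = 0.0011). Dcstamp was first described in dendritic cells, and only 84 and 43 UMIs lay behind these levels. With no upper limit on genes, which lets the Ctsk-high cells in, the differences from dendritic cells were -0.27 for Dcstamp (adjusted p = 0.600) and 0.30 for Ocstamp.

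The tenth of macrophage-gated cells with the most Ctsb held 31.1% of its UMIs, the lowest such share of the 10 genes. Few UMIs raise this share, and Ctsb had the most in the gate (31675, against 84 for Dcstamp), so spread was not separated from level. Ctsb was found in 94.9% to 98.7% of these cells, against 23.5% to 33.4% of lymphoid-gated cells at lower depth. After thinning to 1000 UMIs the means were 87.0% and 8.55%. Cathepsin B is a cysteine protease of lysosomes, and its gene lies at chr14:63122462-63145923. It stood at 3710, 4588, 2526 and 4892 CPM in macrophages, at 1005 to 1434 CPM in monocytes, at 445 to 891 CPM in neutrophils and at 181.7 to 214.5 CPM in dendritic cells, and the 4 ranges did not overlap. The log2 fold change was 1.63 ± 0.13 against monocytes (adjusted p = 1.48e-08), 4.18 ± 0.18 against dendritic cells (adjusted p = 2.61e-13) and 2.17 ± 0.27 against neutrophils (adjusted p = 3.59e-06).

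Ctsl, which encodes the cysteine protease cathepsin L (chr13:64359337-64370890), stood at 724, 2214, 1831 and 1924 CPM in macrophages, at 283 to 1042 CPM in monocytes, at 118 to 160 CPM in neutrophils and at 0 to 57.5 CPM in dendritic cells. Control 1 was the lowest library in macrophages and in monocytes. The log2 fold change was 1.19 ± 0.13 against monocytes (adjusted p = 1.46e-06), 5.56 ± 0.28 against dendritic cells (adjusted p = 2.6e-12) and 3.15 ± 0.26 against neutrophils (adjusted p = 2.77e-08). Dendritic-gated cells held 51 Ctsl UMIs in all. Ctsl passed the count filter of that comparison through the macrophage gate, so its call against dendritic cells is not read as support.

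Ctsd differed least between macrophages and neutrophils among the 8 genes tested there. It encodes the aspartic protease cathepsin D (chr7:142375911-142388038). It stood at 974, 1290, 851 and 1148 CPM in macrophages and at 543, 1266, 809 and 1070 CPM in neutrophils, so its CPM was higher in macrophages in all 4 libraries. The difference did not pass the test, and the fitted value, after TMM scaling, had the opposite sign (log2 fold change -0.12 ± 0.26, adjusted p = 0.709), so no direction is given for Ctsd here. Over the same pair of gates Ctsb and Ctsl fell into separate ranges. Ctsd was higher in macrophages than in monocytes (311 to 475 CPM, 1.35 ± 0.15, adjusted p = 9.35e-07) and dendritic cells (0 to 91.5 CPM, 3.91 ± 0.30, adjusted p = 1.35e-09). Dendritic-gated cells held 94 Ctsd UMIs in all. Ctsd passed the count filter of that comparison through the macrophage gate, so only its call against monocytes is read as support.

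Gpnmb (chr6:49036546-49070929) stood at 216.5, 341.8, 184.1 and 222.0 CPM in macrophages and was found in 25.8% to 40.1% of them, against 1.48% to 2.17% of lymphoid-gated cells. The tenth of macrophage-gated cells with the most Gpnmb held 68.3% of its 2069 UMIs, against 31.1% of 31675 for Ctsb. Whether the spread differed beyond the number of UMIs was not tested. Gpnmb stood at 61.8 ± 45.4 CPM in monocytes (SD, n = 4 libraries), at 0 to 47.0 CPM in neutrophils and at 0 to 13.1 CPM in dendritic cells. The log2 fold change was 1.79 ± 0.22 against monocytes (adjusted p = 3.86e-06), 5.28 ± 0.39 against dendritic cells (adjusted p = 9.48e-10) and 4.29 ± 0.51 against neutrophils (adjusted p = 2.05e-06). Dendritic-gated cells held 8 Gpnmb UMIs in all and neutrophil-gated cells 18. Gpnmb passed the count filter of both comparisons through the macrophage gate, so only its call against monocytes is read as support.

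Mmp19 (chr10:128790910-128800824) encodes a metalloproteinase that macrophages and monocytes both carried. It stood at 77.9, 1223, 940.1 and 716.0 CPM in macrophages and at 70.6, 709, 586 and 602 CPM in monocytes, higher in macrophages in all 4 libraries. Control 1 was well below every other library in both gates. The log2 fold change was 0.40 ± 0.13 (adjusted p = 0.0307), it was -0.076 with no upper limit on genes, and it did not pass without Control 2 (0.26, adjusted p = 0.359) or without hucMSC-Exo 1 (0.35, adjusted p = 0.147). Against dendritic cells (0 to 232.8 CPM) it was 2.17 ± 0.25 (adjusted p = 5.67e-07) and against neutrophils (0 to 86.0 CPM) 4.58 ± 0.46 (adjusted p = 3.2e-07). Neutrophil-gated cells held 81 Mmp19 UMIs in all. Mmp19 passed the count filter of that comparison, and of the comparison with dendritic cells, through the macrophage gate. Its calls against neutrophils and dendritic cells are therefore not read as support.

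Most tested genes of lysosomes and of other cathepsins were also higher in macrophages than in monocytes. Of 24 tested genes of lysosomal membrane proteins and hydrolases 16 were higher and none lower, with a median log2 fold change of 0.83, against 0.012 over all genes tested. Of 7 genes of other cathepsins and legumain 6 were higher (median 0.61), and 7 of 16 pump subunits were higher (median 0.39), with none lower (background 14.3%). Lgmn, an asparaginyl endopeptidase that processes cathepsins, differed by 1.46 ± 0.11 on the log2 scale, and Grn, the lysosomal chaperone progranulin, by 1.57 ± 0.13. Of 12 tested osteoclast program genes 6 were higher and 1 lower (Tyrobp), with Tnfrsf11a at 1.22 ± 0.24 and Csf1r at 0.60 ± 0.12. Of 9 other metalloproteinases 3 were higher and 2 lower, and Mmp8, a neutrophil collagenase, was lower (log2 fold change -3.22 ± 0.31). Of 9 protease inhibitors 2 were higher and 3 lower, of 8 fusion genes 3 and 3, and 0 of 4 MiT/TFE factors passed the test.

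Against dendritic cells the counts were 19 higher and 1 lower of 24 lysosomal genes, 5 and 0 of 7 other cathepsins, 10 and 0 of 16 pump subunits, 6 and 0 of 12 osteoclast program genes, 6 and 1 of 8 metalloproteinases, 3 and 3 of 9 inhibitors, 5 and 1 of 8 fusion genes, and 2 and 0 of 4 MiT/TFE factors (Mitf and Tfec), where 20% of all genes were higher and 16% lower. Cst3, which encodes the cathepsin inhibitor cystatin C and is abundant in dendritic cells, was lower in macrophages (log2 fold change -1.95 ± 0.17). Against neutrophils the counts were 17 higher and 1 lower of 24, 7 and 1 of 8, 3 and 4 of 16, 6 and 2 of 12, 5 and 6 of 12, 4 and 4 of 9, 3 and 4 of 8, and 2 and 2 of 4, in the same order of lists. The cysteine protease inhibitors Stfa1, Stfa2 and Stfa3 (stefins A) were lower in macrophages than in neutrophils. Here 30% of all genes were higher and 26.4% lower, so the counts of pump subunits were below the background in both directions.

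Likeness of pattern was measured as Pearson's r of log2(CPM + 1) over the 16 sums of 4 gates and 4 libraries. It covered the 6446 genes with a mean of 10 CPM or more, with no p, since the sums share libraries and depth. The most similar genes were Itgb5 for Gpnmb (r = 0.967), Spp1 for Ctsd (r = 0.967), Fam20c for Ctsb (r = 0.956) and Cipc for Ctsl (r = 0.954). For Ctsk the best match was Snx9, with r of only 0.680, so none of the genes compared had a close likeness to Ctsk in kept cells. Atp6v0d2 was under that level and was not compared.

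Cells of the macrophage gate with and without a Ctsk UMI were compared, to see which genes went with Ctsk within 1 gate. There were 151 with and 963 without, and those with Ctsk were deeper in every library (medians of 8405, 8839, 8216 and 6523 UMIs against 7702, 7469, 7004 and 6113). The 10 neutrophil-gate markers, Mmp9 among them, summed to 164.4, 311.6, 795 and 224.5 CPM in cells with Ctsk and to 130, 479, 239.6 and 370.8 CPM in cells without, higher with Ctsk in Control 1 and hucMSC-Exo 1, and their part in the result was not tested. Atp6v0d2 was the only gene of 6567 that passed the test (0.0152%), at 2.95 ± 0.30 on the log2 scale (adjusted p = 6.09e-05 by edgeR). It stood at 0, 105.4, 213.2 and 83.7 CPM in cells with Ctsk and at 3.38, 16.3, 13.8 and 16.2 CPM in cells without, higher in 3 of 4 libraries. Gpnmb (1.11 ± 0.23) and Ctsl (0.79 ± 0.16) did not pass (adjusted p = 0.0931 for both), nor did Acp5 (1.26 ± 0.55, adjusted p = 0.639). Without hucMSC-Exo 1, where 24 genes passed and 0.252% were higher, Gpnmb (1.38, adjusted p = 0.000339), Ctsl (0.94, adjusted p = 0.00164) and Ctsd (0.73, adjusted p = 0.0143) passed and Acp5 stood at -0.038.

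The number of genes past the test moved with the cells admitted. Without the cells of 10 or more Ctsk UMIs, 9 genes passed (0.139%), among them Atp6v0d2 (2.23, adjusted p = 0.00336), Ctsl (0.87, adjusted p = 0.00336) and Gpnmb (1.18, adjusted p = 0.00898). With no upper limit on genes, 1916 of 7882 genes passed (11.6% higher and 12.8% lower), and Atp6v0d2 (4.13), Acp5 (4.01), Dcstamp (2.29) and Ocstamp (2.27) were higher in cells with Ctsk while Mmp19 was lower (-1.29, adjusted p = 0.00918). Ctsl and Gpnmb then stood at -0.041 and -0.052. Atp6v0d2 passed as higher in cells with Ctsk in the kept cells, without the cells of 10 or more Ctsk UMIs and with no upper limit. Whether the differences of the other genes changed between the fits was not tested.

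hucMSC-Exo and Control libraries were compared last, within each gate, to ask whether these genes differed with exosome treatment. By edgeR with Benjamini-Hochberg adjustment 0 of 7882 genes passed in macrophages, 0 of 5776 in monocytes, 0 of 3182 in dendritic cells and 0 of 4029 in neutrophils (background 0% in each). DESeq2 also called 0 in each, and 58, 110, 74 and 45 genes had an unadjusted p under 0.05. Of the 10 genes, 10 were tested in macrophages, 8 in monocytes, 5 in dendritic cells and 3 in neutrophils. None of the 10 had groups that did not overlap in macrophages, where 19% of tested genes did. Such genes were Ctsl in monocytes (background 29.4%), Ctsb, Ctsd and Mmp19 in dendritic cells (31%) and Ctsl in neutrophils (25.5%).

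Ctsk had the lowest p of the 10 in macrophages, and its difference rested on hucMSC-Exo 1. The log2 fold change was 2.48 ± 0.93, with an unadjusted p of 0.0266 and an adjusted p of 1.00 in the edgeR fit. Without hucMSC-Exo 1 it was -0.084, without the cells of 10 or more Ctsk UMIs 0.0086, and with no upper limit on genes 0.13. With no upper limit Ctsk stood at 677 and 1597 CPM in Control 1 and 2 and at 2265 and 109.9 CPM in hucMSC-Exo 1 and 2, so the libraries of 1 group were the highest and the lowest. Acp5 went the same way, at 899, 1353, 1846 and 165.7 CPM, and Atp6v0d2 at 140.4, 219.9, 237.3 and 38.3 CPM.

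The 2 Control libraries were far apart, and Control 2 decided several values. Control 1 was the lowest library in kept macrophages for Ctsk, Acp5, Ocstamp, Dcstamp, Atp6v0d2, Ctsl and Mmp19. Without Control 2, which leaves Control 1 as the lone control and assumes that it varies as hucMSC-Exo did, 137 genes passed (0.837% of genes were higher), with Ocstamp (log2 fold change 3.81), Ctsk (3.57), Atp6v0d2 (3.51), Mmp19 (3.43) and Acp5 (1.98) among them. Without Control 1, hucMSC-Exo 1 or hucMSC-Exo 2, none of the 10 passed in macrophages, and 6, 0 and 0 genes of any kind did.

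The share of macrophage-gated cells with a Ctsk UMI, thinned to 1000 UMIs per cell, was 1.58% and 4.14% in Control and 4.28% and 3.36% in hucMSC-Exo. The difference of means was 0.959 percentage points (exact permutation test, two-sided, p = 0.667, where 2 against 2 libraries cannot give less than 0.33). The same test on the shares of all 10 genes gave adjusted p-values of 1 for each.

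**Figure D5:**
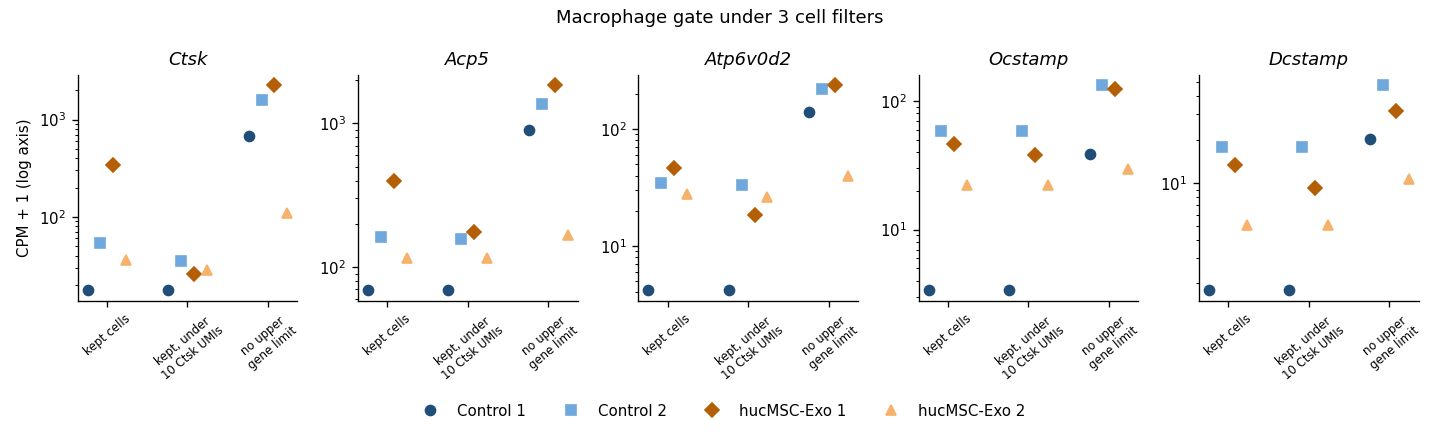
Level (y axis, CPM + 1, log scale, separate in each panel) of the 5 osteoclast genes in macrophage-gated cells of each library under 3 cell filters: kept cells, kept cells without those of 10 or more Ctsk UMIs, and no upper limit on detected genes. hucMSC-Exo 1 was the highest library for Ctsk in kept cells but not without the cells of 10 or more Ctsk UMIs, and with no upper limit hucMSC-Exo 2 was the lowest library for all 5 genes.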

How the data were processed

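Count matrices of 4 droplet libraries (1 per mouse) were used as deposited. Per the labels, the authors made these UMI counts with Cell Ranger 6.1.2 on mm10 (GRCm38), without normalization, from 3′ libraries. A 3′ UMI count needs no correction for length. The authors' methods name DoubletFinder, and whether it was run before deposit is not given in the sources used here. Here no caller was run, and cells with enough markers of unlike lineages (201) or a Siglech UMI (38) were left out of the gates. Cells had 500 UMIs or more.

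The limits on genes (200 to 3000) and on the mitochondrial share (10%) were those of the authors' methods, and kept cells were gated by marker counts. UMIs were summed per gate and library (at least 10 cells), filtered with filterByExpr, scaled by TMM and tested with edgeR 4.0.16 in R 4.3.3 (SE from the fold change and F), with library as a block between gates and no block between groups. DESeq2 1.42.0, no count filter, other gate limits, no upper limit on genes, other thinning depths and leaving out each library were alternatives. Shares were computed after thinning as the expected share over all draws, with cells under 1000 UMIs left out. The text names all 10 genes, and any member of a list with its values, and for 5 of them the most similar gene. The members and lists were chosen with earlier results of these data known. Counting intervals and floors cover counting error only. The fits were also run on simulated counts with known changes. That simulation gave every gene the same dispersion and had no difference between libraries beyond depth, so it is not read as support. Python used numpy 2.4.6, scipy 1.17.1 and pandas 2.3.3. Gene positions are those of GRCm38.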

Additional observations from a re-analysis of the deposited data

Results flagged for a closer look

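Signal lay in cells that the comparisons between gates and groups leave out. Of the deposited UMIs of each gene, 94.6% (Ctsk), 91.4% (Atp6v0d2), 90.7% (Acp5), 73.8% (Dcstamp) and 72.1% (Ocstamp) were in cells over 3000 detected genes, which held 24.1% of all UMIs. The report describes these cells without a test, and whether each is a single cell was not tested.

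Ctsk differed between the macrophage and neutrophil gates in opposite directions in the 2 groups. The macrophage level minus the neutrophil level was -1.28 CPM in Control 1 and -20.8 CPM in Control 2, and it was 332.9 CPM in hucMSC-Exo 1 and 20.8 CPM in hucMSC-Exo 2. The difference between the groups was not tested. The Control 1 value rests on 2 neutrophil UMIs, and 1 cell held 35 of the 57 neutrophil UMIs of Control 2. Leaving out cells of 10 or more Ctsk UMIs put the macrophage level at 16.5, 34.1, 24.9 and 27.5 CPM and the neutrophil level at 17.8, 28.5, 4.70 and 14.1 CPM, in the same order of libraries. The macrophage level was then the higher in Control 2 as well, so the 2 groups no longer went in opposite directions.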

How the results depend on the processing

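Over 543 settings of a single gene, 462 kept direction and call, 27 gained a call, 11 lost it and 43 changed sign, and the causes were not tested. With 2 mice per group, 1 library can decide a value, and low genes such as Dcstamp rest on few UMIs. A split of cells by Ctsk after thinning to 1000 UMIs could not be fitted, since only 1 library had enough cells with Ctsk. Leaving out cells with 3 or more neutrophil markers or with 10 or more Ctsk UMIs, and the crossed block, were chosen after seeing the data.

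Genes called between macrophages and monocytes numbered 1962, but 1258 by DESeq2 and 962 with no library block. Leaving out 1 library at a time gave 1193 to 1998 there, 1531 to 2307 against dendritic cells and 2721 to 4151 against neutrophils. Between hucMSC-Exo and Control, no count filter gave 21 (macrophages), 31 (monocytes), 8 (dendritic cells) and 6 (neutrophils) in place of 0, and gates of 4 markers gave 8 in dendritic cells. Leaving out 1 library gave 0 to 137, 0 to 143, 3 to 110 and 2 to 15. Cells with against without Ctsk gave 1 gene, but 3 by DESeq2, 53 with no count filter, 1916 with no upper limit on genes, 11 with gates of 4 markers, 2 without cells of 3 or more neutrophil markers, 9 without cells of 10 or more Ctsk UMIs, 0 with no library block, 18 for 2 or more Ctsk UMIs against 0, and 2 to 24 leaving out 1 library. The group difference in the thinned Ctsk share ran from -0.321 to 2.24 percentage points leaving out 1 library.

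The replicate numbers are not said to mark a shared day or batch. Deviations of same-numbered libraries correlated at -0.285, -0.140, 0.0864 and 0.0369 over genes in macrophages, monocytes, dendritic cells and neutrophils. With 2 libraries per group these values cannot show whether anything was shared. A replicate block gave 0 called genes in each of the 4 gates and turned Dcstamp to 0.11. The crossed block gave 24 in macrophages and 4 in monocytes, and turned Dcstamp to 0.12.

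Other log2 values that changed sign follow. Macrophages against monocytes: Ocstamp 0.90 with no upper limit, 0.025 with gates of 2 markers and -0.71 to 0.27 leaving out 1 library, and Mmp19 -0.076 with no upper limit. Against dendritic cells: Ocstamp 0.30 with no upper limit. Against neutrophils: Ctsd 0.087 with no count filter and -0.45 to 0.061 leaving out 1 library, and Ctsk -0.37 to 2.04 leaving out 1 library. Between the groups in macrophages with no upper limit: Acp5 -0.10, Ocstamp -0.10 and Atp6v0d2 -0.33. There Ocstamp was -0.044 with gates of 4 markers and -0.11 without cells of 10 or more Ctsk UMIs, and Dcstamp 0.15 without cells of 3 or more neutrophil markers. Leaving out 1 library gave Ctsk -0.084 to 3.57, Acp5 -0.073 to 1.98, Ocstamp -0.71 to 3.81, Dcstamp -1.31 to 3.29, Ctsb -0.61 to 0.18, Ctsl -0.19 to 1.38, Ctsd -0.33 to 0.031, Mmp19 -0.50 to 3.43. In cells with against without Ctsk, no upper limit gave Ocstamp 2.27, Gpnmb -0.052, Ctsb -0.73, Ctsl -0.041 and Ctsd -0.10. A split at 2 UMIs gave Ocstamp 0.60, Gpnmb -0.46 and Ctsb -0.31. Ocstamp was 0.030 by DESeq2, 0.18 with gates of 2 markers and 0.31 with no library block, and Ctsb -0.021 with no count filter. Leaving out 1 library gave Acp5 -0.038 to 1.82, Ocstamp -0.99 to 0.83, Ctsb -0.028 to 0.27.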
